A study of Mus musculus with 19 samples.

Results

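Cerebral microvessels of mice exposed to electronic cigarette vapour with nicotine were compared with those of mice kept in room air. The exposed group is the 3 libraries titled Nic and its control the 4 libraries titled Room-air, so that 7 of the 19 libraries of the series make up the comparison. The 4 libraries titled Nic-free, from mice given vapour without nicotine, entered the same fit and are used to show where the nicotine group differs from them. The rest are 4 libraries titled air, a second set in room air, and 4 of cigarette smoke. No label says which air set is the control of which exposure. All mice were male C57BL/6, a common inbred strain, bought at 7 weeks of age, and no transgene or deletion is named. The dose and length of the exposure, the age at collection and the number of animals behind a library are not given in the sources used here. Nothing says that the libraries of a group came from separate animals, so p-values here reflect only how far these samples spread, which may be technical.

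Cerebral microvessels are capillaries and small vessels isolated from brain. Their endothelial cells are joined by tight junctions and carry the transporters that make up the blood-brain barrier, and they are known for a dense supply of mitochondria. Pericytes, smooth muscle and the endfeet of astrocytes lie against them. In oxidative phosphorylation, complexes I to IV of the inner mitochondrial membrane pass electrons to oxygen, all but complex II pump protons, and ATP synthase uses the proton gradient to make ATP. Nearly all of their subunits are encoded in the nucleus. Nicotine acts through nicotinic acetylcholine receptors, which are cation channels with a central pore.

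Sequencing gave 21.8M, 26.2M and 28.4M counts (M stands for 1000000) in Nic 1 to 3, against 30.2M, 29.8M, 25.3M and 26.7M in Room-air 1 to 4. Levels are given as CPM, counts per 1000000 counts of a library after scaling between libraries by the TMM method. Reads in no annotated feature were 38.4, 37.9 and 33.0% of reads in Nic 1 to 3 and 28.9, 28.7, 31.7 and 33.4% in Room-air 1 to 4, so that Nic 3 lay within the range of the Room-air libraries. On the second principal component of the 11 fitted libraries, which held 19.3% of the variance, Nic 1 stood farthest from room air, at −41.27, with Nic 2 at −27.29 and Nic 3 at −18.66, against 7.84 to 11.65 in Room-air.

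The labelled tissue was checked against marker genes. All 27 endothelial markers had counts in every library and summed to 0.485 to 0.894% of counts in Nic and 0.475 to 0.676% in Room-air. Cldn5, the main claudin of brain endothelium, stood at 635, 252 and 657 CPM in Nic 1 to 3 and at 401, 424, 351 and 253 CPM in Room-air 1 to 4, and Nic 2 was thus the Nic library lowest in this marker. Neuronal markers took 0.865 to 0.906% of counts in Nic and 0.826 to 0.957% in Room-air, so the libraries held RNA of brain tissue beside that of vessels. Oligodendrocyte markers ranged from 0.935 to 1.53% in Nic and from 1.29 to 1.55% in Room-air. Markers of choroid plexus and ependyma, the lining of the ventricles, took 0.307 to 0.942% of counts in Nic and 2.30 to 3.06% in Room-air, and these ranges did not overlap. In such bulk samples fewer cells of a type and less RNA per cell cannot be told apart.

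**Figure D1:**
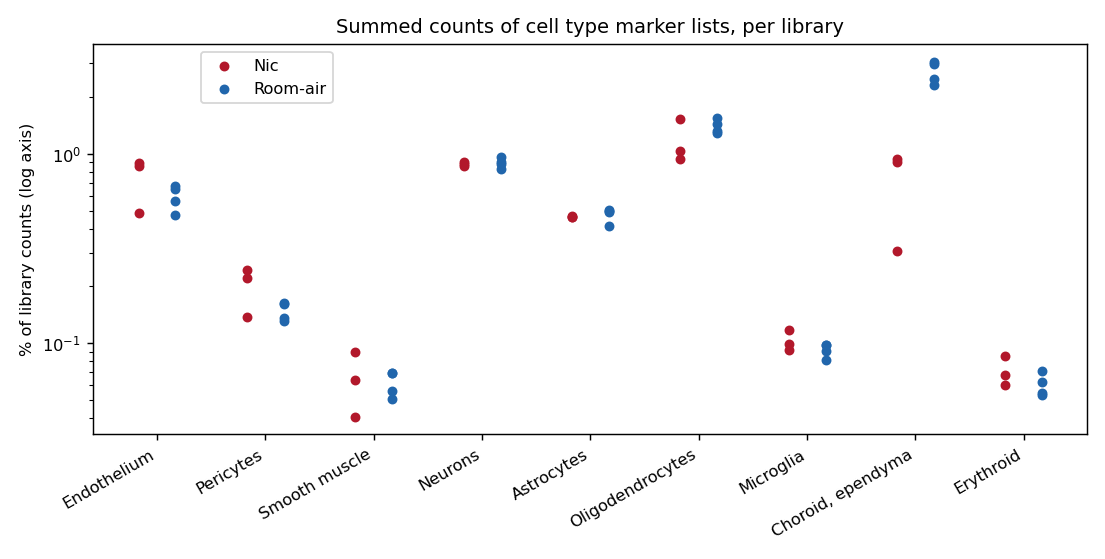
Summed counts of the marker genes of 9 cell types as percent of each library's counts, on a log axis, with 1 point per library for Nic and for Room-air. The choroid plexus and ependyma markers are lower in all 3 Nic libraries than in any Room-air library, and the neuron markers overlap.

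Nicotine vapour against room air asks how the vessel transcriptome differs after exposure to the complete vapour. Of 17235 genes tested with edgeR at a Benjamini-Hochberg adjusted p under 0.05, 210 were higher in Nic than in Room-air (1.22%) and 460 were lower (2.67%), 3.89% in either direction. The lowest adjusted p was 0.0152, 4201 genes had an unadjusted p under 0.05, and the median log2 fold change of all genes tested was 0.028. Among all genes tested 16.6% had no overlap in CPM between the 3 Nic and the 4 Room-air libraries. These calls rest on single libraries. Without Nic 1 or without Room-air 2 no gene passed (lowest adjusted p 0.144 and 0.0614, with 2424 and 3581 genes at an unadjusted p under 0.05). Without Room-air 1, 16 genes were higher and 95 lower, and without Nic 3, 1621 were higher and 1335 lower. Beyond these, the count of higher genes was 73 to 249 and that of lower genes 214 to 673 when another of the 11 libraries was left out. DESeq2 called 646 genes higher and 983 lower. For named genes below, the range of the log2 fold change over the 11 fits that each leave out 1 library is given where it bears on the result.

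**Figure D2:**
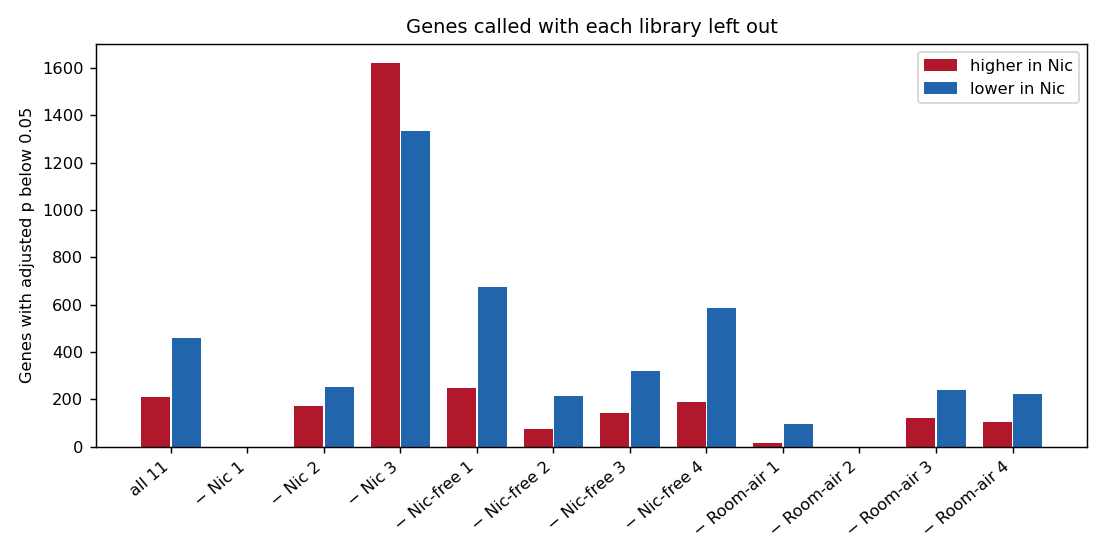
Number of genes with an edgeR adjusted p under 0.05, higher or lower in Nic than in Room-air, in the fit of all 11 libraries and in fits that each leave out the library named on the axis. No gene passed without Nic 1 or without Room-air 2, and 1621 higher and 1335 lower genes passed without Nic 3.

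Genes of energy metabolism were lower in the nicotine group. Of 80 tested nuclear genes for subunits of the 5 complexes of oxidative phosphorylation, 38 fell and none rose, against 2.67% lower among all genes tested, and 77 had a negative log2 fold change. Their median log2 fold change was −0.41, and it stayed between −0.53 and −0.34 when each library was left out in turn. The 13 protein-coding genes of the mitochondrial genome are listed in the files with 0 counts in every library and were not tested. Summed over the list, complex I subunits took 0.181 to 0.226% of counts in Nic and 0.244 to 0.270% in Room-air, with no overlap. The same held for ATP synthase subunits, at 0.167 to 0.208% in Nic and 0.235 to 0.279% in Room-air.

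ATP synthase, the enzyme that makes ATP, had 9 of 17 subunits or regulators lower and none higher (median log2 fold change −0.48). Atp5g1 encodes its subunit c, which forms the rotating ring in the membrane (ENSMUSG00000006057, chr11:96068852-96075670 in GRCm38). It stood at 31.8, 37.3 and 40.4 CPM in Nic 1 to 3, against 69.8, 72.6, 64.3 and 63.9 CPM in Room-air 1 to 4. The highest Nic library thus lay well below the lowest Room-air library, and the log2 fold change was −0.89 ± 0.12 (SE; edgeR adjusted p 0.0152). Subunit c is encoded by 3 genes with the same mature protein. Atp5g3 fell as well, at 107, 105 and 128 CPM in Nic and 168, 165, 162 and 162 CPM in Room-air (log2 −0.54 ± 0.09, edgeR adjusted p 0.0197), while Atp5g2, at 7.12 to 11 CPM in Nic and 10.2 to 15.7 CPM in Room-air, did not pass (log2 −0.48 ± 0.18, adjusted p 0.116). The catalytic core fell too, with Atp5a1 (alpha subunit) at 289, 312 and 362 CPM in Nic and 554, 477, 485 and 438 CPM in Room-air, and Atp5b (beta subunit) at 449 to 569 CPM in Nic and 648 to 812 CPM in Room-air. Their log2 fold changes were −0.61 ± 0.11 and −0.51 ± 0.11. Atp5d and Atp5o, of the central and peripheral stalk, fell by 0.48 and 0.54 on the log2 scale; exons of Atp5o overlap other genes over 12.3% of their length on the same strand and 35.6% on the opposite strand, so its counts are uncertain.

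Complex I, which oxidises NADH, had 13 of 37 subunit genes lower and none higher (median −0.39). Ndufa11, a membrane subunit, stood at 29.6, 34.9 and 41.1 CPM in Nic 1 to 3, against 64.0, 65.6, 56.5 and 57.8 CPM in Room-air 1 to 4 (ENSMUSG00000002379, chr17:56717767-56722141). These did not overlap, and the log2 fold change was −0.79 ± 0.12 (edgeR adjusted p 0.0152). Ndufa1 had the largest fall of the complex, at 22.6, 21.9 and 36.7 CPM in Nic and 46.9 to 59.9 CPM in Room-air (log2 −0.95 ± 0.16, edgeR adjusted p 0.0197). Nic 3 was nearest to room air in both genes. Ndufa13, Ndufv3, Ndufb7 and Ndufa4 fell by 0.65, 0.68, 0.57 and 0.55 on the log2 scale, the last being a gene now assigned to complex IV. Ndufb5 (log2 −0.35, edgeR adjusted p 0.0513), Ndufa2 (−0.59, 0.0544) and Ndufb10 (−0.41, 0.0552) were the nearest that did not pass.

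Complex II links the citric acid cycle to the respiratory chain, and 3 of its 4 genes fell. Sdhc, a membrane anchor, stood at 56.2, 55.9 and 69.9 CPM in Nic and 98.9, 90.0, 94.8 and 91.8 CPM in Room-air (log2 −0.63 ± 0.11, edgeR adjusted p 0.0197). Sdhd, the other anchor, fell by 0.46 and Sdha, the flavoprotein, by 0.40 on the log2 scale, while the iron-sulphur subunit Sdhb had −0.28 (adjusted p 0.0668). Of 10 genes of complex III and cytochrome c 8 fell (median −0.45), among them Uqcrq, Uqcr11 and Uqcrfs1. Uqcrq stood at 42.2, 39.8 and 58.6 CPM in Nic and 78.1, 84.4, 68.8 and 72.9 CPM in Room-air (log2 −0.70 ± 0.13, edgeR adjusted p 0.0208). Cycs, cytochrome c itself, was at 11.5 to 14.3 CPM in Nic and 13.7 to 15.7 CPM in Room-air, which overlap (adjusted p 0.206). Complex IV, which reduces oxygen, had 5 of 12 genes lower (median −0.41). Cox4i1 stood at 281, 280 and 351 CPM in Nic and 469, 514, 404 and 477 CPM in Room-air (log2 −0.62 ± 0.11, edgeR adjusted p 0.0199). Cox7a1, the heart and muscle form of its subunit, was low in all libraries but had the largest difference, at 1.06, 1.36 and 1.77 CPM in Nic against 3.80, 4.28, 4.12 and 3.33 CPM in Room-air (log2 −1.46 ± 0.25, edgeR adjusted p 0.0197).

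**Figure D3:**
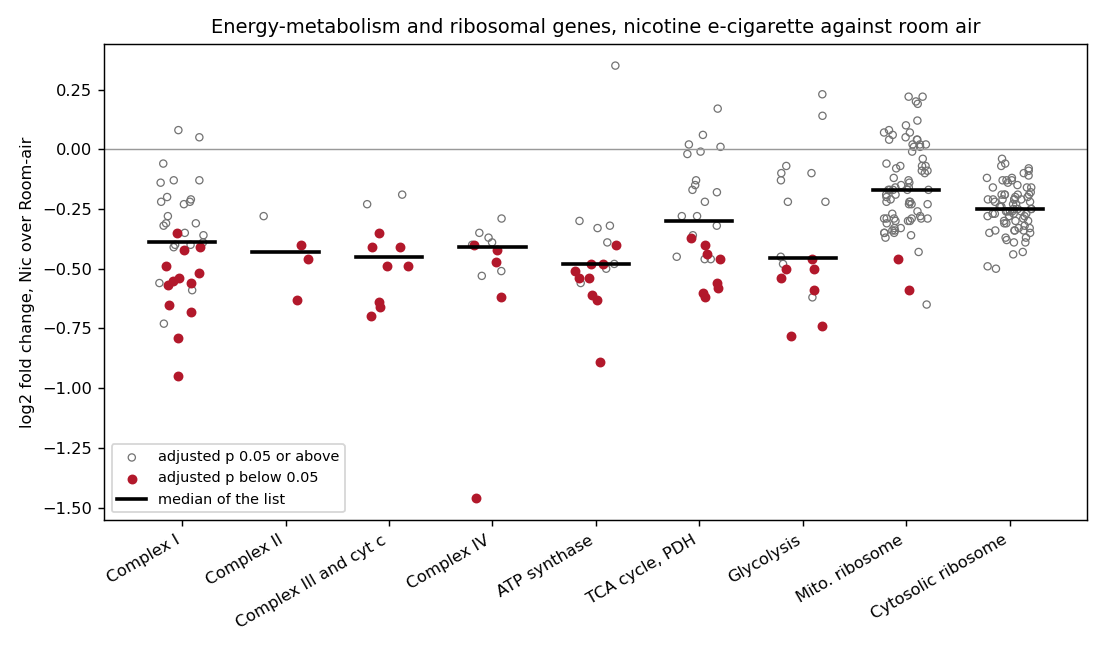
Log2 fold change of Nic over Room-air for each tested gene of 9 lists, with filled points for genes at an edgeR adjusted p under 0.05, open points for the rest and a bar at the list median. All filled points lie below 0, and the cytosolic ribosomal proteins have negative values throughout with no gene past the threshold.

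Promoter sequence is shown for the 3 genes among these 38 whose window holds the core motif of nuclear respiratory factor 1, a transcription factor known for its sites before genes of the respiratory chain. Windows run from 250 bases before to 50 after the transcription start and come from RefSeq (GRCm38.p6), which had one for 66 of the 80 genes and 30 of the 38. The motif GCGCATGC, on either strand, was in 11 of the 66 windows (16.7%) and in 3 of the 30, against 3.05% of the windows of all 27025 genes. Capitals mark this motif, the ETS core CCGGAAG and the cyclic AMP response element TGACGTCA on either strand, and overlapping matches run together. Ndufa11 is at chr17:56717512-56717811 (plus strand), Uqcr11 at chr10:80406772-80407071 (minus strand) and Uqcrc1 at chr9:108936398-108936697 (plus strand).
Ndufa11: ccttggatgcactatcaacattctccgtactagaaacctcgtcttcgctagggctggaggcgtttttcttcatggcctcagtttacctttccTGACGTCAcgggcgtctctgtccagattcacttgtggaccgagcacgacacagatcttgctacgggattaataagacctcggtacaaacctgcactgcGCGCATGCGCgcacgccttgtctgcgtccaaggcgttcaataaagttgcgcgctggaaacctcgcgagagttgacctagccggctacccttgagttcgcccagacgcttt
Uqcr11: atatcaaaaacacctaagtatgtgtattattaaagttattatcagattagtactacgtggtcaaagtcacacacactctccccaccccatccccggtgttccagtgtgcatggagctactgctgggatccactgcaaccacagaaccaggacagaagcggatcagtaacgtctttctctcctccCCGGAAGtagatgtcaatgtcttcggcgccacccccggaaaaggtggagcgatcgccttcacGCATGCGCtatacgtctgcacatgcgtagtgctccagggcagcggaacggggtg
Uqcrc1: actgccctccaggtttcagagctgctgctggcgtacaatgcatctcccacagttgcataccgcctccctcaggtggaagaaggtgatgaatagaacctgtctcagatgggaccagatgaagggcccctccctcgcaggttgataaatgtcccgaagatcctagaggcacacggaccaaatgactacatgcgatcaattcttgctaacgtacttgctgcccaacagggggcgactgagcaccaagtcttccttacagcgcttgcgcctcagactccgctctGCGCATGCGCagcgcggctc
The ETS core was in 16 of the 66 windows (24.2%) and in 7 of the 30 (23.3%), against 9.93% of all windows. A match describes letters only, and binding was not measured. Uqcr11 stood at 44.1, 37.0 and 53.9 CPM in Nic and 67.3, 79.7, 63.8 and 69.4 CPM in Room-air (log2 −0.64 ± 0.12, edgeR adjusted p 0.0218). Uqcrc1, a core protein of complex III that is named for its motif and was chosen after its value was seen, fell by 0.41 ± 0.10 on the log2 scale (edgeR adjusted p 0.0445).

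Enzymes that feed the respiratory chain were lower in part. In glycolysis 7 of 18 genes fell and none rose, against 2.67% lower among all genes (median −0.45; −0.56 to −0.37 with each library left out). Pgk1, phosphoglycerate kinase (ENSMUSG00000062070, chrX:106187100-106203699), stood at 38.3, 42.2 and 45.9 CPM in Nic, against 77.9, 69.1, 70.9 and 62.7 CPM in Room-air (log2 −0.74 ± 0.11, edgeR adjusted p 0.0181). Ldhb, the lactate dehydrogenase subunit that favours the use of lactate, stood at 155, 188 and 218 CPM in Nic and 346, 335, 303 and 302 CPM in Room-air (log2 −0.78 ± 0.12, edgeR adjusted p 0.0197). In both genes the groups were well apart. Gapdh, Pkm, Eno1 and Aldoa, further enzymes of the pathway, fell by 0.59, 0.54, 0.50 and 0.46 on the log2 scale. Hk1, the hexokinase that starts the pathway in brain, had −0.45 (adjusted p 0.0519). Of 26 genes of the citric acid cycle and its entry 8 fell, beside the same 2.67% (median −0.30), such as the malate dehydrogenases Mdh1 (−0.62) and Mdh2 (−0.46), the aspartate aminotransferase Got2 (−0.58) and Ogdh of the oxoglutarate dehydrogenase complex (−0.56). Mdh1 stood at 196, 241 and 250 CPM in Nic and 410, 321, 349 and 324 CPM in Room-air. Pdk2, a kinase that holds back entry of pyruvate into the cycle, fell as well, at 42.0, 48.0 and 54.0 CPM in Nic and 68.2 to 82.9 CPM in Room-air (log2 −0.60 ± 0.11, edgeR adjusted p 0.0197).

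Other mitochondrial genes were counted in 3 lists. Chchd10, of the intermembrane space, was among the 10 genes of smallest p, at 46.4, 63.3 and 69.7 CPM in Nic and 125, 130, 111 and 107 CPM in Room-air (log2 −0.98 ± 0.13, edgeR adjusted p 0.0152). Of 30 genes of protein import and inner membrane organisation 3 fell, Chchd10 and the cristae proteins Chchd6 (−0.58) and Chchd3 (−0.40). Of 76 mitochondrial ribosomal proteins 2 fell, Mrpl34 (−0.59) and Mrpl57 (−0.46), a share of 2.63% that is near the background. These counts depend on Nic 3, without which 10 of the 30 import genes and 25 of the 76 mitochondrial ribosomal genes were lower. In that fit 1335 of all 17304 genes tested were lower. None of 20 genes of mitochondrial biogenesis, fusion and fission passed, where 3.89% of all genes passed. The nearest were Sirt1, a deacetylase, with a log2 fold change of 0.55 (adjusted p 0.0518), Gabpa, an ETS factor of mitochondrial genes (0.39, 0.0626), and Mfn2, which fuses mitochondria (−0.32, 0.0639). Cytosolic ribosomal protein genes all had negative log2 fold changes, 79 of 79 with a median of −0.25, but none passed and their summed share overlapped, at 0.756 to 1.23% of counts in Nic and 1.10 to 1.19% in Room-air. Without Nic 3, 53 of the 79 were lower, beside the 1335 of 17304 genes lower in that fit.

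**Figure D4:**
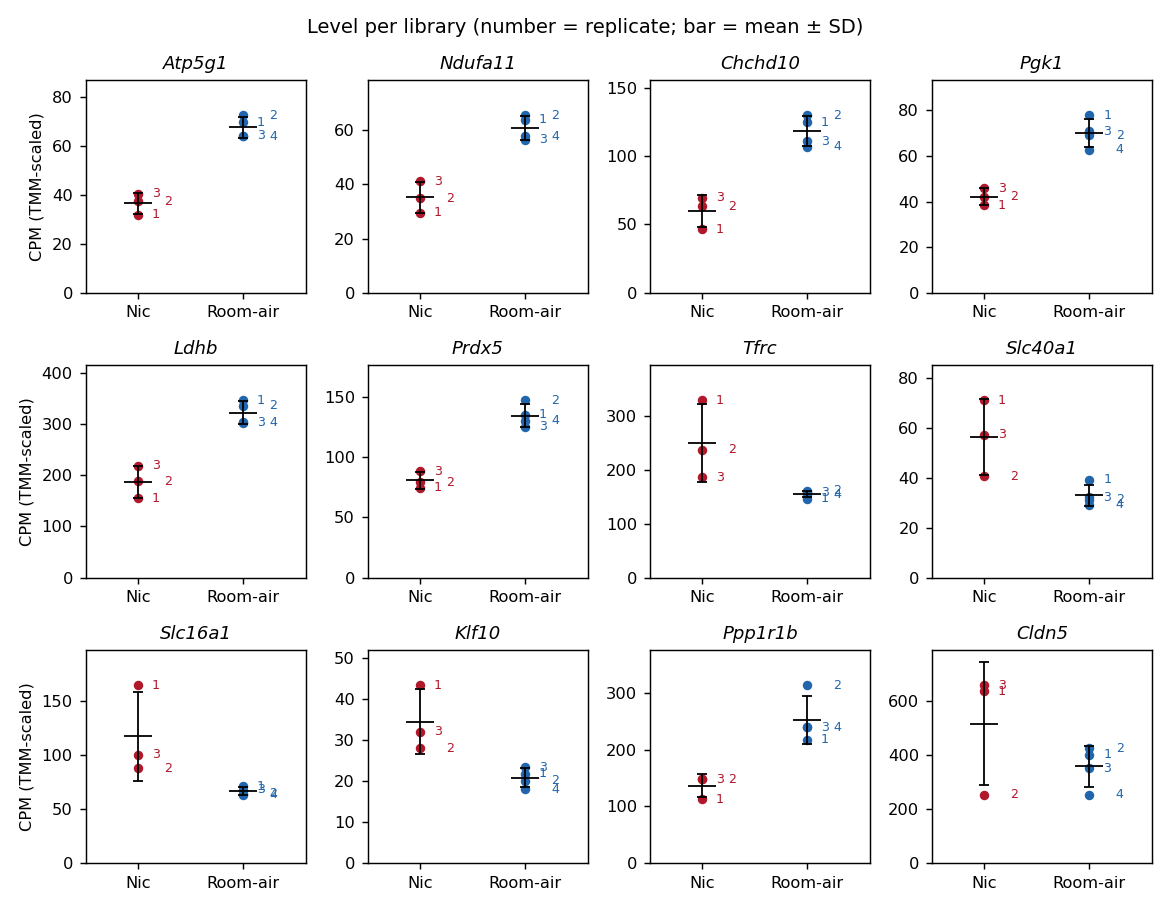
Level in CPM of 12 genes in each Nic and Room-air library, numbered by replicate, with the mean and SD of each group. Nic and Room-air do not overlap in 11 of the genes, while Cldn5 overlaps because Nic 2 lies at 252 CPM.

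Genes against oxidants were lower where they changed. Of 40 NRF2 targets and antioxidant genes 7 fell and none rose, against 2.67% lower among all genes, with a median of −0.27. Prdx5, a peroxiredoxin that removes peroxides in mitochondria and peroxisomes (ENSMUSG00000024953, chr19:6906697-6910106), had the smallest p of all genes. It stood at 74.5, 79.2 and 88.2 CPM in Nic, against 135, 147, 125 and 130 CPM in Room-air (log2 −0.74 ± 0.10, edgeR adjusted p 0.0152); 19.1% of its exons overlap a gene on the opposite strand. Gpx4, which reduces lipid peroxides, stood at 97.1, 79.9 and 115 CPM in Nic and 126 to 159 CPM in Room-air (log2 −0.52 ± 0.12, edgeR adjusted p 0.0347). Prdx2 (−0.42), Park7, also known as DJ-1 (−0.48), and Tkt, a transketolase that supports NADPH supply (−0.50), fell too. The classical NRF2 targets Nqo1 and Hmox1 did not pass. Nqo1 was at 4.15, 6.29 and 6.46 CPM in Nic and 13, 13, 16.7 and 12.5 CPM in Room-air, with no overlap (log2 −1.28 ± 0.35, adjusted p 0.0639), and Hmox1 at 3.84 to 6.70 CPM in Nic and 4.88 to 7.86 CPM in Room-air (−0.29 ± 0.21, 0.435).

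Metallothioneins bind zinc and copper and answer to glucocorticoids and metals. All 3 members tested fell. Mt3, the brain form (ENSMUSG00000031760, chr8:94152607-94154146), stood at 124, 112 and 161 CPM in Nic and 225, 248, 186 and 234 CPM in Room-air (log2 −0.75 ± 0.14, edgeR adjusted p 0.0218). Mt1 stood at 122, 130 and 160 CPM in Nic and 188 to 233 CPM in Room-air (−0.57 ± 0.12, edgeR adjusted p 0.0279). Mt2 fell by 0.53 on the log2 scale, but 73.5% of its exons overlap a gene on the opposite strand, and its value without the GC and length trend was −0.36 (adjusted p 0.108). With Klf15, a glucocorticoid-induced factor (−0.46), and Gadd45g, a stress gene (−0.62), 5 of 26 genes of the glucocorticoid and metallothionein list fell and none rose, against 2.67% lower among all genes. The list turned with the other comparators. It had 8 genes higher and 4 lower against Nic-free, where 12.4% of all genes were higher and 12.4% lower. Against the air set 12 were higher and 3 lower, where 15.3% of all genes were higher and 14.6% lower. Klf15 had 0.24 against the air set. Maob, a monoamine oxidase of the outer mitochondrial membrane in astrocytes, stood at 21.1, 25.8 and 26.7 CPM in Nic and 47.5, 42.9, 54.7 and 41.3 CPM in Room-air (log2 −0.92 ± 0.15, edgeR adjusted p 0.0197). It and Aldh2, a mitochondrial aldehyde dehydrogenase (−0.71), were the 2 of 28 genes of the aryl hydrocarbon receptor and xenobiotic list that passed. Their share was 7.14%, against 3.89% of all genes. Cyp1b1, a target of that receptor, was at 13.9 to 19.9 CPM in Nic and 11.1 to 26.1 CPM in Room-air (log2 −0.02 ± 0.27, adjusted p 0.978).

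Iron is taken into brain endothelium by the transferrin receptor and released by ferroportin. Both rose in the nicotine group. Tfrc, the transferrin receptor (ENSMUSG00000022797, chr16:32608920-32632794), stood at 329, 237 and 186 CPM in Nic, against 147, 161, 159 and 154 CPM in Room-air (log2 0.69 ± 0.14, edgeR adjusted p 0.0257). Slc40a1, ferroportin (ENSMUSG00000025993, chr1:45908068-45926523), stood at 71.2, 40.7 and 57.3 CPM in Nic and 39.3, 31.4, 32.3 and 29.4 CPM in Room-air (0.77 ± 0.16, edgeR adjusted p 0.0249). Neither gene overlapped between the groups, although the spread among Nic libraries was wide and Nic 1 was highest in both. Hfe, which binds the transferrin receptor, fell to 12.7, 14.7 and 16.5 CPM in Nic, against 22.6 to 26.5 CPM in Room-air (−0.72 ± 0.17, edgeR adjusted p 0.0338), but had 0.04 against the other air set. These were the 3 of 26 iron genes that passed (11.5%, against 3.89% of all genes). Both rises lost their call when the trend of fold change with GC content and length was removed, at 0.45 (adjusted p 0.0837) for Tfrc and 0.59 (0.0991) for Slc40a1.

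Of the barrier's other carriers, a few passed. Slc16a1, the monocarboxylate transporter of lactate and ketone bodies (ENSMUSG00000032902, chr3:104638668-104658462), rose to 164, 87.3 and 100 CPM in Nic, against 70.9, 63.9, 67.7 and 62.9 CPM in Room-air (log2 0.82 ± 0.16, edgeR adjusted p 0.0249). Nic 1 was the highest, and the value ran from 0.50 to 0.99 with each library left out. Slc7a1, a carrier of arginine and lysine, rose although Nic 2, at 79.3 CPM, lay inside the 68.0 to 83.0 CPM of Room-air (0.60 ± 0.14, edgeR adjusted p 0.0351). Slc1a1, a glutamate carrier, had close values within each group, at 178, 168 and 164 CPM in Nic and 123, 126, 128 and 133 CPM in Room-air (0.41 ± 0.08, edgeR adjusted p 0.0218). Slc7a10, an alanine, serine and cysteine carrier of astrocytes, fell by 0.73 on the log2 scale; 17.9% of its exons overlap a gene on the opposite strand. The same is true of 31.9% of the exons of Slc1a1, and no source says whether reads were counted by strand.

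Tight junction genes did not pass, with a single exception among junction genes as a whole. Ocln, occludin, stood at 82.8, 57.3 and 85.0 CPM in Nic and 71.4, 64.8, 80.1 and 56.4 CPM in Room-air, which overlap (log2 0.14 ± 0.15, adjusted p 0.612). The overlap was as wide for Slc2a1, the glucose transporter, at 664 to 966 CPM in Nic and 765 to 861 CPM in Room-air (0.04 ± 0.17, adjusted p 0.915). Log2 fold changes were 0.53 ± 0.33 for Cldn5, 0.36 ± 0.13 for Tjp1, a junction scaffold, 0.28 ± 0.16 for Mfsd2a, a lipid carrier, and 0.28 ± 0.21 for Abcb1a, the P-glycoprotein pump, with adjusted p of 0.353, 0.101, 0.297 and 0.444. Of 28 junction genes the one that rose was Afdn, afadin of adherens junctions, at 237, 228 and 216 CPM in Nic and 167 to 187 CPM in Room-air (0.37 ± 0.08, edgeR adjusted p 0.0289). The share of junction genes that passed, 3.57%, was near the 3.89% of all genes. Of the 28 junction genes 17 had positive values and 11 negative, and the largest differences were falls that did not pass. Tjp3 had −1.96 ± 0.65 (edgeR adjusted p 0.113), Cldn1 −1.67 ± 0.70 (0.186) and Cldn3 −1.58 ± 0.53 (0.104). Against the air set they had −1.35, 0.46 and −0.68. Choroid plexus and ependyma markers fell by a like amount against Room-air (list median −1.76). Whether these junction transcripts came from endothelium or from that tissue was not tested. None of 29 genes of Wnt and norrin signalling and none of 17 of caveolae and transcytosis passed, beside the same 3.89%. All 27 endothelial markers had positive log2 fold changes with a median of 0.32, and none passed. Their median ran from 0.14 to 0.57 with each library left out, and Nic 2 had an endothelial share of counts within that of Room-air.

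Among vessel growth genes, Efnb2, the arterial ephrin ligand, rose to 68.2, 65.9 and 65.4 CPM in Nic, against 49.0, 47.3, 50.9 and 50.3 CPM in Room-air (log2 0.43 ± 0.08, edgeR adjusted p 0.0218). Nrp1, a co-receptor of VEGF and semaphorins, rose by 0.52 ± 0.13 (adjusted p 0.0461). Notch2, a receptor, fell by 0.65 on the log2 scale, and Tgfb2, a growth factor, fell by 0.81. Against the other air set they had 0.09 and 0.33. Abcc9, the sulphonylurea receptor of pericytes, was the one pericyte marker of 12 that passed (0.59 ± 0.15, edgeR adjusted p 0.0482), at 78.6, 45.6 and 53.6 CPM in Nic and 34.5 to 43.4 CPM in Room-air. That is 8.33% of the list, against 3.89% of all genes, and all 12 markers had positive values (median 0.31). Vegfa, at 167 to 193 CPM in Nic and 157 to 194 CPM in Room-air, did not pass (−0.01 ± 0.10).

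Immediate early genes are induced within minutes to hours of a stimulus. Of 34 tested, 3 rose and none fell (8.82%, against 1.22% higher among all genes), and 31 of the 34 had positive values (median 0.36). Klf10, a zinc finger factor induced by TGF-beta (ENSMUSG00000037465, chr15:38291463-38300706), stood at 43.3, 28.0 and 32 CPM in Nic and 21.7, 20.1, 23.4 and 18 CPM in Room-air (log2 0.73 ± 0.14, edgeR adjusted p 0.0228). Nr4a1, a nuclear receptor, stood at 143, 137 and 135 CPM in Nic and 83.0, 95.1, 89.1 and 120 CPM in Room-air (0.51 ± 0.14, edgeR adjusted p 0.0482). Klf6 rose by 0.54. Npas4, a factor of active neurons, had 0.57 (adjusted p 0.0596), and Dusp6, a phosphatase that acts on ERK, 0.42 (0.0538). Whether these come from vessel cells or neurons cannot be told apart in bulk RNA.

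Receptors for nicotine itself showed no call. None of 28 nicotinic and cholinergic genes passed, where 3.89% of all genes passed, so a list of this size would hold few calls. Of the 28, 1 had no overlap between the groups, against 16.6% of all genes. Chrna4 and Chrnb2, which form the main nicotinic receptor of brain, differed by −0.31 ± 0.12 (adjusted p 0.132) and 0.06 ± 0.09 (0.725) on the log2 scale. Chrnb2 stood at 52.4, 49.7 and 48.1 CPM in Nic and 52.6, 48.5, 41.3 and 49.1 CPM in Room-air. Chrna7, of the homomeric receptor, was low, at 4.28 to 5.72 CPM in Nic and 4.69 to 5.66 CPM in Room-air (−0.05 ± 0.16). Chrnb4 was at 0.353, 1.13 and 1.01 CPM in Nic and 2.84 to 3.42 CPM in Room-air, with no overlap, at −1.87 ± 0.56 (adjusted p 0.0779). Lynx1, a membrane-anchored modulator of these receptors, had −0.42 (0.0709).

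Of 31 glutamate and GABA receptor genes 2 rose and none fell, against 1.22% higher among all genes, and 27 had positive values (median 0.32). With the GC and length trend removed 1 was higher and the median was 0.15. Grik2, a kainate receptor subunit, stood at 142, 174 and 103 CPM in Nic and 83.2 to 101 CPM in Room-air (log2 0.55 ± 0.15, edgeR adjusted p 0.0489). Nic 3 lay just above the highest Room-air library. Grin2b, an NMDA receptor subunit, had 0.37 (adjusted p 0.0539). Striatal neuron markers went both ways. Ppp1r1b, the DARPP-32 phosphoprotein of dopamine-receptive neurons, fell to 113, 148 and 148 CPM in Nic, against 218, 314, 240 and 240 CPM in Room-air (−0.89 ± 0.15, edgeR adjusted p 0.0197; 15.7% of its exons overlap a gene on the opposite strand), and Foxp1, a transcription factor, rose by 0.53. Drd1, the dopamine receptor found in the same kind of neuron, was at 35.4, 38.5 and 28.8 CPM in Nic and 22.6 to 31.7 CPM in Room-air (0.37 ± 0.15, adjusted p 0.145). Aldh1l1 was the astrocyte marker of 14 that passed (−0.50 ± 0.10), and Gpr34 the microglia marker of 15 (0.53 ± 0.13). These are 7.14% and 6.67% of the lists, against 3.89% of all genes. The astrocyte list had 5 positive and 9 negative values (median −0.08), and the microglia list 14 positive and 1 negative (median 0.17).

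Inflammatory genes gave few calls. None of 32 genes of NF-kB, cytokines and chemokines and none of 41 interferon and MHC class I genes passed, where 3.89% of all genes passed. Of the interferon and MHC class I genes 36 were positive (median 0.24). Itga4, an integrin of leukocytes, was the one adhesion gene of 20 that rose (log2 0.45 ± 0.10, edgeR adjusted p 0.0308; 0.21 and 0.295 with the GC and length trend removed). Its share of the list was 5.0%, against 1.22% higher among all genes. Icam1 and Vcam1, to which leukocytes bind, were highest in replicate 3 of both groups. Icam1 was at 14.0, 7.91 and 34.0 CPM in Nic and 12.9, 11.2, 24.4 and 11.1 CPM in Room-air (0.33 ± 0.47, adjusted p 0.723), and Vcam1 at 72.0, 69.2 and 152 CPM in Nic and 103, 85.7, 177 and 97.5 CPM in Room-air (−0.24 ± 0.32, adjusted p 0.690). Il1b did not exceed 1.21 CPM in any of the 7 libraries.

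Among genes with a mean of at least 5 CPM and no overlap between the groups, the 12 largest rises, which include Slc16a1, Slc40a1 and Klf10, had log2 fold changes of 0.71 to 0.88. Morc2b, of the MORC family of chromatin ATPases, stood at 11.4, 11 and 7.85 CPM in Nic and 4.58, 5.76, 5.06 and 6.50 CPM in Room-air (0.88 ± 0.17, edgeR adjusted p 0.0218). Trpc6, a cation channel opened by diacylglycerol, had values of little spread, at 27.1, 26.0 and 25.8 CPM in Nic and 12.1, 14.5, 17.3 and 17.8 CPM in Room-air (0.77 ± 0.14, edgeR adjusted p 0.0197). Zfp933, a zinc finger gene, stood at 63.9, 65.3 and 58.1 CPM in Nic and 34.3 to 44.0 CPM in Room-air. The others were Traip, a ubiquitin ligase of replication repair (0.77), the transcription factor Mycn (0.76), the hydroxysteroid dehydrogenase Akr1c14 (0.73), Cntnap5c of the contactin-associated family (0.73), the ubiquitin ligase Hectd2 (0.72) and Taf1d, of the RNA polymerase I machinery (0.71).

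The 12 largest falls by the same rule had log2 fold changes of −1.55 to −1.19. Col17a1, a collagen of hemidesmosomes, stood at 2.38, 3.65 and 3.54 CPM in Nic and 9.0, 9.77, 11.1 and 7.75 CPM in Room-air (log2 −1.55 ± 0.30, edgeR adjusted p 0.0243). Tuba1c, an alpha-tubulin with near-identical paralogs that can share reads, fell by 1.5, Ltc4s, leukotriene C4 synthase, by 1.43 (26.4% of its exons overlap a gene on the opposite strand), and Nt5dc2 by 1.37 on the log2 scale. Atp2b3, a calcium pump of the plasma membrane, stood at 67.4, 92.9 and 89.1 CPM in Nic and 224, 220, 246 and 157 CPM in Room-air (−1.35 ± 0.26, edgeR adjusted p 0.0257). Rsph1 and Ccdc113 are parts of motile cilia, which ependyma carries. Rsph1 fell to 5.56, 8.62 and 6.32 CPM in Nic, against 16.2, 16.5, 19.5 and 16.3 CPM in Room-air (−1.32 ± 0.28), and Ccdc113 fell by 1.19. Sfrp5, a Wnt inhibitor (−1.33), Klc3, a kinesin light chain (−1.31), Acaa2, a thiolase of mitochondrial fat oxidation (−1.29), Angptl2 (−1.26) and Prps2, of nucleotide synthesis (−1.22), made up the rest.

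Of some other lists 1 or 2 members passed, where 3.89% of all genes passed. Hspb6, a small heat shock protein of muscle, was among the 10 genes of smallest p, at 3.93, 4.48 and 5.0 CPM in Nic and 11.3, 9.07, 8.32 and 9.07 CPM in Room-air (log2 −1.07 ± 0.17, edgeR adjusted p 0.0197), and it was the only one of 25 heat shock genes to pass. Clu, clusterin, an abundant chaperone outside cells, fell to 1014, 1056 and 1210 CPM in Nic, against 1389 to 1608 CPM in Room-air (−0.47 ± 0.11, edgeR adjusted p 0.0331). Mmp2, a gelatinase of the matrix, fell by 0.69, Irs2, an insulin receptor substrate, by 0.67 (0.40 against the air set), and Phgdh, the first enzyme of serine synthesis, by 0.48 on the log2 scale. Skil, which restrains TGF-beta signalling, rose by 0.52, Edem1, of protein disposal in the endoplasmic reticulum, by 0.33, and Arntl, also known as Bmal1, a core clock factor, by 0.30 (−0.04 against the air set). The time of day at collection is not given in the sources used here. Among the 10 smallest p were also Tmem53 (−1.02), the myosin gene Myh7 (−0.79) and the noncoding model Gm15832 (0.85), 38.6% of whose exons overlap a gene on the same strand.

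Markers of choroid plexus moved with these falls. Ttr, transthyretin, the leading transcript of choroid plexus, stood at 1870, 6584 and 6383 CPM in Nic and 16128, 18100, 20591 and 24042 CPM in Room-air. Of 15 tested choroid and ependymal markers, 13 had no overlap between the groups, against 16.6% of all genes, and the list median was −1.76. The ependymal markers went both ways, with Foxj1 at −0.84 and Dynlrb2 at −1.13 but Ccdc153 at 0.43 and Tmem212 at 0.53. None of the 15 markers of choroid plexus and ependyma passed in the fit of 11 libraries, in which Ttr ran from 836 to 18250 CPM among the Nic-free libraries, and 9 were lower in a fit of Nic and Room-air alone. Slc46a1, the folate carrier of choroid plexus, was among the 10 genes of smallest p, at 7.46, 10.5 and 10.2 CPM in Nic and 16.5, 19.4, 18.3 and 18.8 CPM in Room-air (log2 −0.95 ± 0.14, edgeR adjusted p 0.0152). The part of this tissue in the falls named here was not tested. Slc46a1 had −0.07 against the air set (adjusted p 0.852), whose choroid plexus share reaches lower than that of Room-air.

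Calls also followed the length and base composition of genes. Protein-coding genes higher in Nic had a median exonic length of 7289 bases and a GC content of 44.3%, and those lower 2905 bases and 53.7%. All such genes tested had a median length of 4395 bases. In the quintile of genes lowest in GC, 83 were higher and 15 lower, and in the quintile highest in GC, 3 were higher and 144 lower. The quintile of the shortest genes took 9.29 to 11.5% of counts of protein-coding genes in Nic and 12.4 to 13% in Room-air. With this trend removed in each library, 150 genes were higher (0.870%) and 423 lower (2.45%), and 39 of the 80 genes of oxidative phosphorylation and 6 of the 18 glycolytic genes were lower, with medians of −0.38 in both lists. Beside Tfrc, Slc40a1, Mt2 and Itga4, the genes described above that lost their call in that fit and kept their direction were Klf6, Klf15, Slc7a1, Slc7a10, Abcc9, Nrp1, Notch2, Grik2, Foxp1, Gpr34, Aldh2, Akr1c14, Ltc4s, Nt5dc2, Sfrp5, Rsph1, Ccdc113, Mrpl34, Aldoa, Clu, Irs2, Skil, Edem1 and Arntl. Atp5g1 had a log2 fold change of −0.96 there (edgeR adjusted p 0.0139), Prdx5 −0.63 (0.0203) and Slc16a1 0.71 (0.0490).

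**Figure D5:**
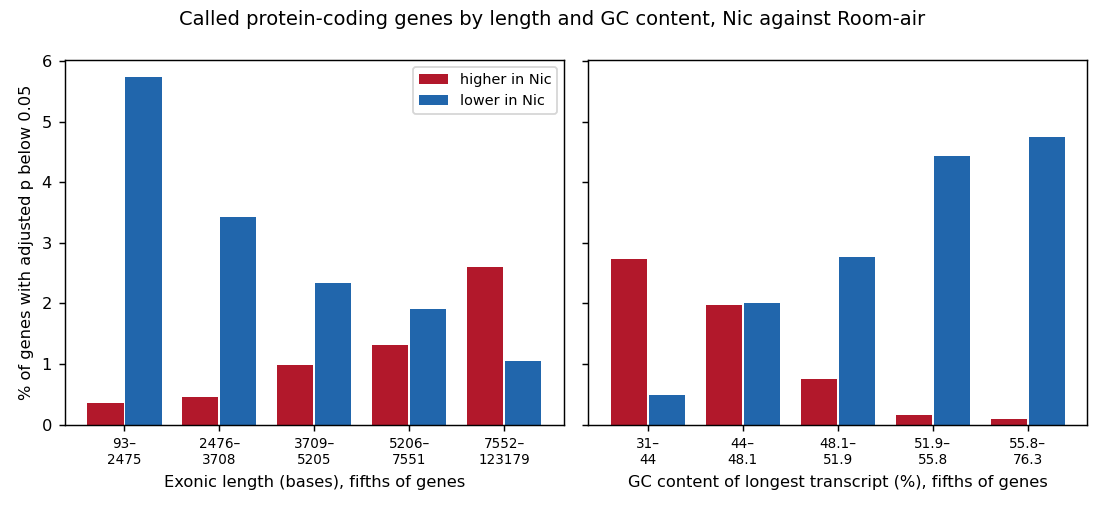
Percent of protein-coding genes with an edgeR adjusted p under 0.05, higher or lower in Nic than in Room-air, in quintiles of exonic length (left) and of GC content (right). The share of lower genes falls with length and increases with GC content, and that of higher genes does the opposite.

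The nicotine group was set beside the nicotine-free group in the same fit, to show where it differs from vapour alone. Nic was higher than Nic-free in 2131 genes (12.4%) and lower in 2142 (12.4%). Of the 460 genes lower than in Room-air 237 were also lower than in Nic-free, and of the 210 higher ones 113 were also higher. All these contrasts share the Nic libraries, so they are not independent. Of the 80 genes of oxidative phosphorylation 72 were lower in Nic than in Nic-free and none higher, with a median of −0.61. Cytosolic ribosomal proteins were lower in 71 of 79 (median −0.67), as were 10 of 20 neuron markers (−0.51) and 7 of 11 of oligodendrocytes (−0.47) in the same contrast, so such falls were not confined to energy genes. Atp5g1 had a log2 fold change of −0.58 against Nic-free (edgeR adjusted p 0.00337), Prdx5 −0.81 (0.000238) and Pgk1 −0.51 (0.00464). Nic was lower than both groups in these 3 genes. Metallothioneins were lower than in Nic-free as well, with Mt3 at −1.29 (edgeR adjusted p 0.000212), Mt1 at −1.14 (0.000212) and Mt2 at −0.81 (0.000763). Their list as a whole went the other way, with 8 of 26 genes higher and 4 lower than in Nic-free and a median of 0.38. Slc40a1 was higher than in Nic-free (0.52, edgeR adjusted p 0.0265), while Tfrc (0.06 ± 0.14, 0.801) and Morc2b (0.01 ± 0.17, 0.979) did not pass. Bcl2l1, which guards against apoptosis, was lower than in Room-air (−0.48, edgeR adjusted p 0.0218) and higher than in Nic-free (0.31, 0.0246). Ocln (1.07, edgeR adjusted p 0.000423) and Slc2a1 (1.15, 0.000617) were higher in Nic than in Nic-free. Endothelial markers moved with them, with 17 of 27 higher and none lower (median 0.79), and took 0.485 to 0.894% of counts in Nic and 0.342 to 0.518% in Nic-free. The part of this shift in the values of single endothelial genes was not tested.

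With the other room air set as control, in a fit of all 19 libraries, 2540 of 16557 genes were higher in Nic (15.3%) and 2421 lower (14.6%). Of the 80 genes of oxidative phosphorylation 75 were lower in that contrast, with a median of −0.81. So were 74 of the 79 cytosolic ribosomal proteins, with the same median, and 50 of the 76 mitochondrial ones (median −0.42), and 13 of the 18 glycolytic genes were lower and 1 higher. Endothelial markers were higher in 25 of 27 (median 1.06), where none passed against Room-air. The glucocorticoid and metallothionein list had a median of 0.34 there and of −0.44 against Room-air, but Mt3 (−1.48) and Mt1 (−1.28) were lower against both sets. Of the largest falls, Atp2b3 (0.29, edgeR adjusted p 0.693) and Angptl2 (0.13, 0.841) had positive values against the air set. Choroid and ependymal markers took 0.463 to 2.87% of counts in the air set, a range that overlaps that of Nic. The unexposed sets also differed from each other in energy genes. The median of the 80 genes of oxidative phosphorylation was −0.41 against Room-air, beside the −0.81 against the air set. Complex I subunits took 0.275 to 0.341% of counts in the air set, above the 0.244 to 0.270% of Room-air. ATP synthase subunits overlapped, at 0.252 to 0.310% and 0.235 to 0.279%. The cause was not tested.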

How the data were processed

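RNA of cerebral microvessels was sequenced as polyadenylated RNA in strand-specific single-end reads of 80 nt, per the labels' protocols. The authors deposited raw counts per gene, whole numbers with no normalization. The submitters' processing notes name STAR, HTSeq and mm10 (GRCm38), with no versions, and whether reads were counted by strand is not given in the sources used here. The 5 summary rows of the table, among them the reads in no feature, stayed out of library sizes and tests. They held 28.7 to 38.4% of reads as no feature in the 7 libraries of the comparison. Gene symbols and positions came from an annotation of GRCm38 for 37693 of the 39179 genes listed.

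The 11 libraries titled Nic, Room-air and Nic-free were fitted together with edgeR 4.0.16 (R 4.3.3), so that they share an estimate of the spread. The steps were filterByExpr, TMM scaling and the robust quasi-likelihood test, with Benjamini-Hochberg adjustment over 17235 genes and a threshold of 0.05. The SE of a log2 fold change is its size over the square root of F. The number of libraries, their totals and the spread between libraries limit the precision. The common coefficient of variation between libraries, beyond that of counting, was 0.139. In counts simulated for this comparison on 17235 genes with 200 changed, 61.2% of 1.5-fold, 82.1% of 2-fold and 98.5% of 4-fold changes were recovered.

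Alternatives were RLE and upper-quartile scaling, other filters, the 2 groups alone, a replicate block, DESeq2 1.42.0, each library left out, and the other air set as control. Removal of the GC and length trend was added after the data were seen. The members and gene lists were chosen with earlier results of these data known. Named are the 12 largest rises and falls among called genes with a mean of at least 5 CPM and groups that do not overlap, up to 6 called and 3 uncalled members of each list by p, the 10 genes of smallest p, and a fixed set of barrier, inflammatory, nicotinic and mitochondrial genes. Promoter windows came from RefSeq. One named gene is not reported here.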

Additional observations from a re-analysis of the deposited data

Results flagged for a closer look

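In 14 genes named by the rule, 1 of the 4 Room-air libraries stood apart from the other 3. Its gap to the nearest of them was a larger share of the group's range than Dixon's 95% critical value allows. Chance alone gives this in about 1 in 20 groups. The rule named 314 tested genes, so a count of 14 is near what chance gives. The 3 Nic libraries are too few for this test. Room-air 3 was high in Rsph1 (19.5 CPM), Icam1 (24.4 CPM), Nqo1 (16.7 CPM) and Il1b (1.21 CPM), and low in Ndufb10 (84.9 CPM). Room-air 1 was high in Uqcrfs1 (76.4 CPM), Aldoc (861 CPM), Atp13a5 (62.1 CPM) and Oxt (21.4 CPM). Room-air 2 stood apart in Timm13 (51.2 CPM), Mrpl57 (19.4 CPM) and Klf6 (48.4 CPM), and Room-air 4 in Mrps25 (28.0 CPM) and Ccl4 (0.34 CPM).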

How the results depend on the processing

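Counts of genes higher and lower in Nic than in Room-air moved by over 1.5 times in at least 1 direction in 5 settings beside those that leave out a library, of which the replicate block is given below. With the 2 groups alone 64 genes were higher and 615 lower, with DESeq2 646 and 983, with the air set as control 2540 and 2421, and with the mean of both air sets 1558 and 1458. With each library left out, 0 to 1621 genes were higher and 0 to 1335 lower. Against Nic-free, 1238 to 2423 were higher and 1163 to 2256 lower. Deviations from the group means had correlations of −0.259 to 0.251 between same-numbered libraries and of −0.342 to 0.267 between libraries of other numbers. Nic 3 had 0.158 with Room-air 3 and 0.251 with Nic-free 3, while Room-air 3 had −0.084 with Nic-free 3. With a replicate block 122 genes were higher and 350 lower than in Room-air.

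Of 116 called named genes 107 kept their direction in all 21 alternatives, and of their 2435 values 1762 kept direction and call, 664 kept the direction only and 9 changed sign. The 9 turned with the air set as control, at a log2 fold change of 0.29 for Atp2b3, 0.13 for Angptl2, 0.04 for Hfe, 0.24 for Klf15, −0.04 for Arntl, 0.09 for Notch2, 0.33 for Tgfb2, 0.40 for Irs2 and 0.22 for Bcl2l1. Of genes that did not pass against Room-air, Cyp1b1 (0.94), Chrna7 (0.66), Ddit4 (0.93), Fzd4 (1.62), Tgfbr3 (0.71), Cdkn1a (1.79) and Ighm (−1.0) turned in that setting and passed there, and Cdkn1a (0.71) and Ighm (−0.50) turned with the mean of both air sets. The cause was not tested. Of 198 uncalled named genes 165 passed under some alternative. How recovery depends on the level of a gene was not tested.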

Other observations

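Lcn2, lipocalin 2, an acute-phase gene of inflamed endothelium and astrocytes that was picked after its values were seen, stood at 66.5 CPM in Nic 3 and at 189 CPM in Room-air 3. It was at 0.971 and 0.979 CPM in the other Nic libraries and at 0.736 to 2.21 CPM in the other Room-air libraries. Icam1 (34.0 CPM in Nic 3 and 24.4 CPM in Room-air 3) and Vcam1 (152 and 177 CPM) were highest in the same libraries.

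Room-air 1 held transcripts of hypothalamic neurons. Oxt, oxytocin, was at 21.4 CPM there, Avp, vasopressin, at 35.0 CPM and Pmch, melanin-concentrating hormone, at 13 CPM. In the 3 Nic libraries Oxt was at 0.678 to 1.01 CPM, Avp at 1.92 to 2.56 CPM and Pmch at 0.264 to 0.694 CPM. In the other Room-air libraries they were at 0.0778 to 0.402, 0.583 to 3.44 and 0.350 to 2.72 CPM.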
